A study of Mus musculus with 16 samples.

Results

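Fxyd2, Fxyd6, Fxyd7, Atp1b1, Atp1b2 and Atp1b3 encode small regulators and beta subunits of the sodium pump, and their transcripts were measured in sorted cells of the mouse olfactory mucosa. The 6 genes were taken by symbol from the annotation of the Clariom S mouse array, each had 1 probe set, and they are 6 of 19505 named genes. They were chosen by the measured GFP+ minus GFP- difference: that of Fxyd2 was the highest of all 18425 named genes that are no odorant receptor, in odor and in vehicle. Differences between the sorted fractions are therefore given for these genes as a description, with no test. The tests are kept for the response to 2-hexanone, which did not enter the choice. Odorant receptors are counted here by symbol, Olfr and a number alone. Trace amine-associated receptors and the pseudogene Olfr911-ps1 fall outside that count.

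The animals were S100a5-tauGFP mice, in which the promoter of S100a5, a calcium-binding protein gene that follows neuronal activity, drives a green fluorescent reporter. All 24 mice, of both sexes and aged 7 to 12 weeks, carried it and stayed alone in clean-air chambers for 40 h at 3.1 L of air per min. From 26 h on they received pulses of 10 s every 20 min, either of the ketone 2-hexanone (odor) or of filtered air (vehicle). Olfactory mucosa of 3 mice was pooled and sorted, which gave odor GFP+, odor GFP-, vehicle GFP+ and vehicle GFP- cells, with 4 pools and so 4 arrays in each group. The GFP+ and GFP- arrays of a pool share their mice, and a GFP- cell can be any cell of the mucosa or a neuron with little reporter.

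The sodium pump exports sodium and imports potassium at the cost of ATP, and so maintains the gradients that neurons spend when they signal. It consists of a catalytic alpha subunit and a glycosylated beta subunit, which brings the alpha subunit to the membrane. FXYD proteins are small membrane proteins, named after a short conserved motif, that bind the assembled pump and tune its affinity for ions. Olfactory sensory neurons signal through ion channels in their cilia, and the sodium gradient also drives the exchangers and cotransporters that clear calcium and load chloride in these cells.

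All values are the deposited log2 signals, which reach 19.81, above the 16 bits of a scanner. The scale had been transformed in a way that is not stated, and folds are on that scale. Each array's background floor is the highest of 23 antigenomic background probe sets, at 6.16 to 7.33, and a signal under it is called under background. S100a5 averaged 16.72 ± 0.38 in odor GFP+ and 15.11 ± 0.15 in odor GFP- cells, and 16.42 ± 0.41 in vehicle GFP+ and 15.04 ± 0.43 in vehicle GFP- cells (SD, n = 4). Of 11 markers of mature olfactory sensory neurons 10 were above background in every group, and Cngb1 was under it on all arrays. Immune markers were lower in GFP+ cells for 9 of 9 genes in both treatments (limma, Benjamini-Hochberg adjusted p below 0.05), as were 6 of 8 sustentacular, 6 of 7 microvillous or ionocyte and 5 of 8 immature neuron markers. Over all probe sets 9.56% were lower in odor and 9.86% in vehicle. The pools numbered replicate 1 stood apart. Their deviations from the group means, over all probe sets, correlated between odor and vehicle at 0.419 in GFP+ and 0.354 in GFP- cells, against 0.031 to 0.214 for the other numbers. Differences without both replicate 1 pools are also given for the 4 of these genes above background and for the sodium gradient users that passed.

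**Figure D1:**
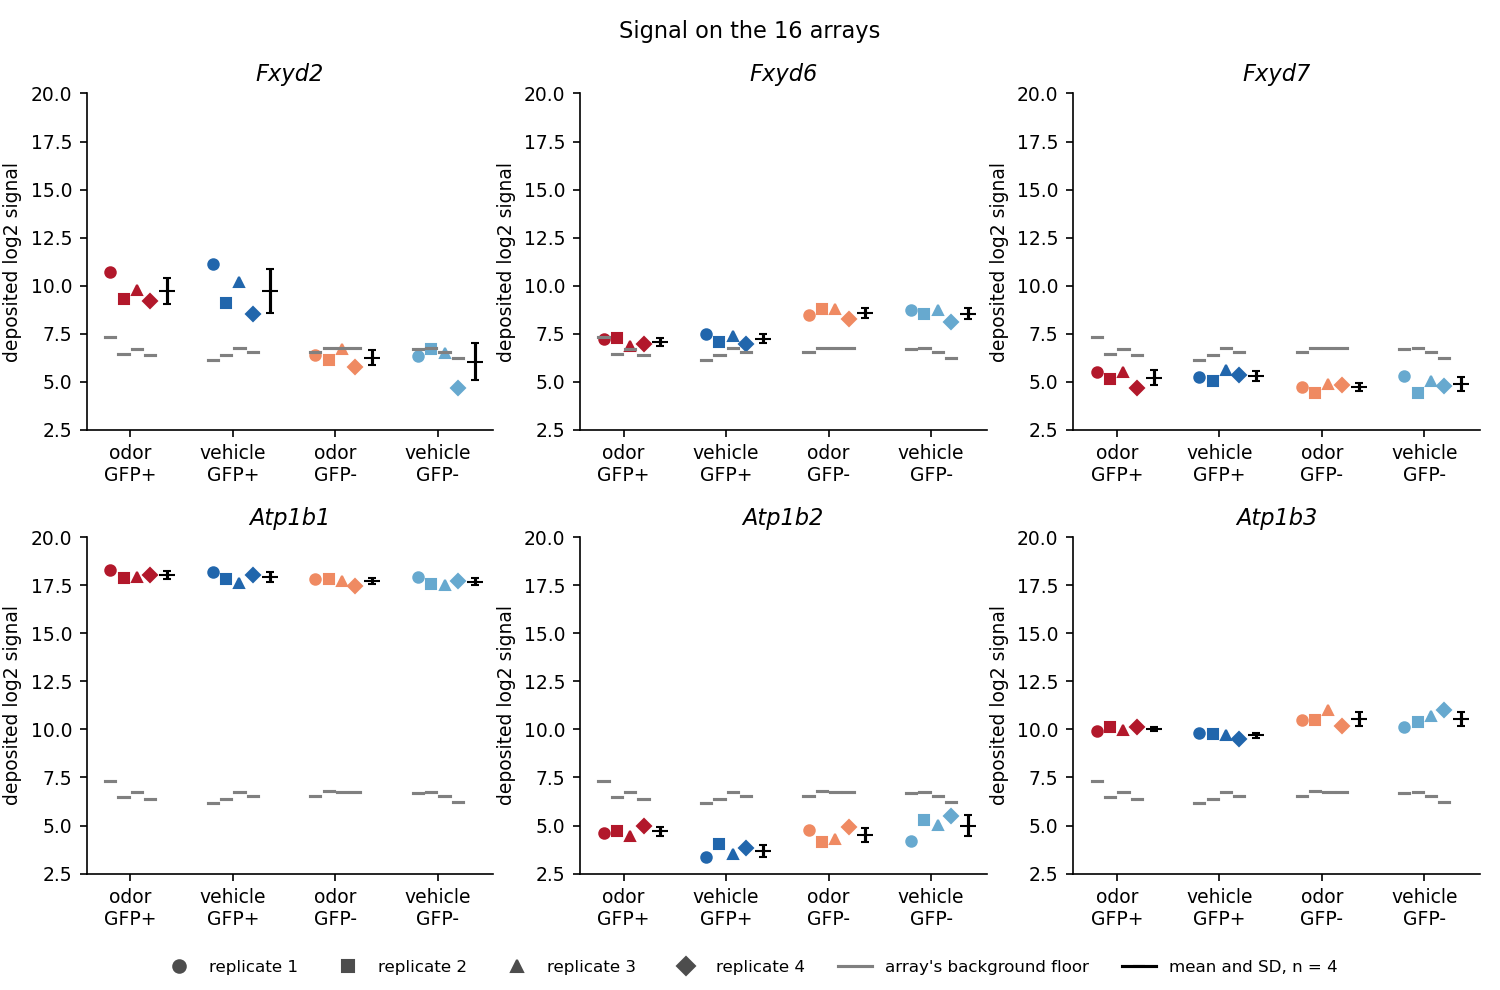
Deposited log2 signal of the 6 genes on the 16 arrays, by group, with a marker shape for each replicate, the background floor of each array as a grey dash, and the mean and SD of each group in black (n = 4). Fxyd2 is above background in GFP+ cells alone, Fxyd6 and Atp1b3 lie lower in GFP+ cells, Atp1b1 lies near the top of the scale, and Fxyd7 and Atp1b2 are under background on all arrays.

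Fxyd2 encodes the gamma subunit of the pump, best known from kidney tubules, where it lowers the pump's affinity for sodium. Its signal in odor pools 1 to 4 was 10.70, 9.30, 9.77 and 9.18 in GFP+ cells, against 6.41, 6.13, 6.69 and 5.78 in GFP- cells. In vehicle pools 1 to 4 it was 11.12, 9.11, 10.19 and 8.54 in GFP+ cells, against 6.32, 6.71, 6.52 and 4.66 in GFP- cells. All 8 GFP+ arrays were above background and above every GFP- array, and all 8 GFP- arrays were under background. The GFP+ minus GFP- difference within a pool was 4.29, 3.17, 3.08 and 3.41 in odor (mean 3.49 ± 0.55 SD) and 4.80, 2.39, 3.67 and 3.88 in vehicle (mean 3.69 ± 0.99). With GFP- arrays set to their floor, this is at least 8.13-fold in odor and at least 9.08-fold in vehicle. In both treatments the replicate 1 pool was the highest GFP+ array and the replicate 4 pool the lowest. Without both replicate 1 pools the mean difference was 3.22 in odor and 3.31 in vehicle.

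By size of that difference Fxyd2 held place 62 of all 19505 named genes in odor and place 42 in vehicle, and the genes above it were odorant receptors. The next gene not counted as an odorant receptor was the receptor pseudogene Olfr911-ps1 in odor (3.27) and the trace amine-associated receptor Taar9 in vehicle (3.41). In the order of its 4 group means, vehicle GFP+ (9.74) and odor GFP+ (9.74) overlapped, odor GFP+ and odor GFP- (6.25) did not, and odor GFP- and vehicle GFP- (6.05) overlapped. In bulk samples such as these, fewer cells of a type and less RNA per cell cannot be told apart. Of the 11 mature neuron markers 1 was higher in GFP+ cells in odor and 2 in vehicle, and 0 were lower (limma, adjusted p below 0.05). Over all probe sets 5.29% were higher and 9.56% lower in odor, and 5.83% higher and 9.86% lower in vehicle. The summed signals of these markers overlapped between the fractions, at 21.5 to 21.6 in odor GFP+ and 21.3 to 21.6 in odor GFP- cells, and at 21.3 to 21.7 in vehicle GFP+ and 21.3 to 21.5 in vehicle GFP- cells (log2). Such a sum rests on the brightest markers. The marker Omp averaged 19.36 to 19.45 over the groups, close to the highest signal of each array, 19.51 to 19.81. The overlap therefore does not show that neuron content was alike.

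**Figure D2:**
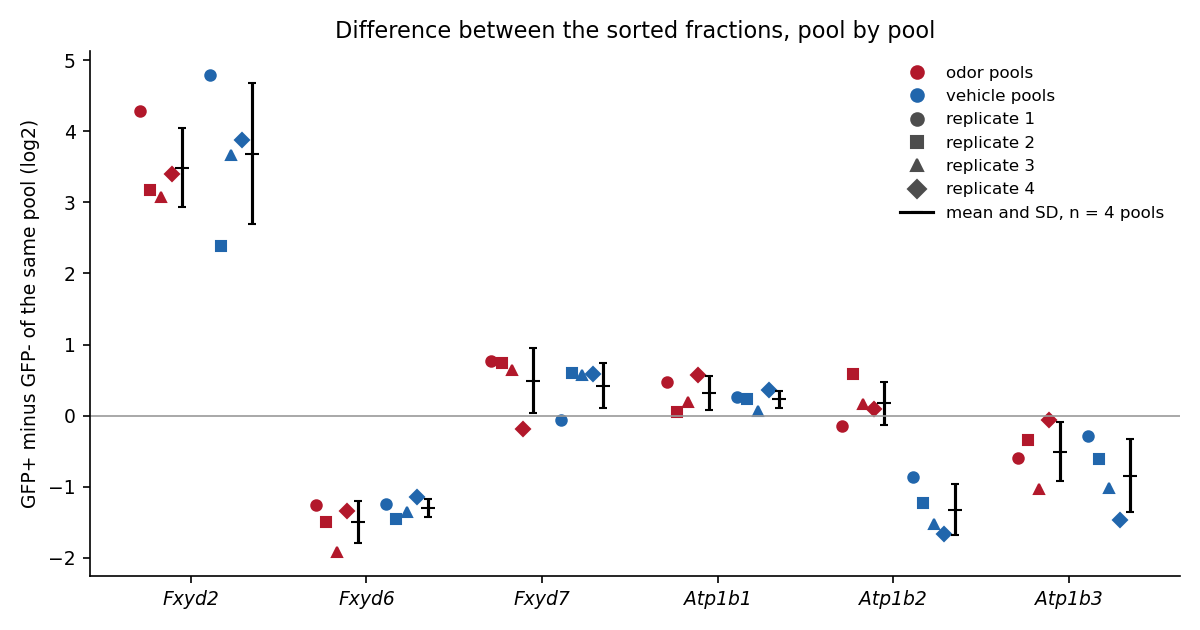
GFP+ minus GFP- difference of log2 signal within each of the 8 pools, for the 6 genes, with odor pools in red and vehicle pools in blue, a marker shape for each replicate, and the mean and SD in black (n = 4 pools). Fxyd2 lies between 2.39 and 4.80 in all 8 pools and Fxyd6 between -1.92 and -1.15, while Atp1b2 lies on both sides of 0 in odor and below 0 in all 4 vehicle pools.

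Fxyd6 is the next annotated gene beside Fxyd2 on chromosome 9, and its product, phosphohippolin, is an FXYD regulator found in brain. Its signal went the other way. In odor pools 1 to 4 it was 7.23, 7.29, 6.85 and 6.95 in GFP+ cells, against 8.48, 8.79, 8.77 and 8.29 in GFP- cells. In vehicle pools 1 to 4 it was 7.48, 7.09, 7.39 and 6.99 in GFP+ cells, against 8.73, 8.54, 8.74 and 8.14 in GFP- cells. No GFP+ array reached the lowest GFP- array, and 7 of the 8 GFP+ arrays were above background, all but odor replicate 1. The differences within pools averaged -1.503 ± 0.29 in odor, a 2.83-fold lower signal in GFP+ cells (2.79-fold with odor replicate 1 set to its floor), and -1.30 ± 0.13 in vehicle (2.46-fold lower). Without both replicate 1 pools they were -1.58 and -1.32.

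Odor GFP- (8.58) and vehicle GFP- (8.54) were the upper pair in the order of the Fxyd6 means and overlapped. Vehicle GFP+ (7.24) and odor GFP+ (7.08) overlapped as well, and the pairs were apart. Immune markers were lower in GFP+ cells as well, and so were most sustentacular and most microvillous or ionocyte markers. Summed immature neuron signals overlapped between the fractions in both treatments, though 5 of the 8 genes were lower when taken singly. Summed immune marker signals were 8.72 to 9.25 in odor GFP+ and 18.8 to 19.1 in odor GFP- cells, and 8.14 to 9.83 in vehicle GFP+ and 17.4 to 19.8 in vehicle GFP- cells (log2, 9 genes). Ptprc, Cd52, Tyrobp, Fcer1g, S100a8 and Spi1 were under background on all GFP+ arrays. Summed immature neuron marker signals were 14.5 to 15.3 in odor GFP+ and 14.8 to 15.4 in odor GFP- cells, and 14.5 to 15.0 in vehicle GFP+ and 14.9 to 15.3 in vehicle GFP- cells (8 genes). The part of these cells in the Fxyd6 difference was not tested.

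Fxyd2 was chosen for the highest GFP+ minus GFP- difference among genes not counted as odorant receptors. That its annotated neighbours with a probe set had smaller differences follows from this choice, and their values are a description. On the far side of Fxyd2 lies a long non-coding RNA gene without a named probe set and then Dscaml1, a neuronal cell adhesion gene. Dscaml1 averaged 7.78 ± 0.23 in odor GFP+ and 7.24 ± 0.16 in odor GFP- cells, and 7.80 ± 0.24 in vehicle GFP+ and 7.32 ± 0.17 in vehicle GFP- cells, with no overlap in either treatment. Tmprss13, a protease gene on the other side of Fxyd6, was under background on all 16 arrays.

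Fxyd7 encodes an FXYD protein of brain neurons and glia. Its probe set was under background on all 16 arrays, so no fold is given. The signals were 4.66 to 5.52 in odor GFP+ and 4.42 to 4.88 in odor GFP- cells, and 5.02 to 5.63 in vehicle GFP+ and 4.42 to 5.29 in vehicle GFP- cells. The groups overlapped in both treatments, and all neighbours in the order of their means overlapped.

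Atp1b1 encodes the most widespread beta subunit of the pump. Its signal in odor pools 1 to 4 was 18.30, 17.88, 17.91 and 18.04 in GFP+ cells, against 17.83, 17.84, 17.72 and 17.47 in GFP- cells. In vehicle pools 1 to 4 it was 18.18, 17.81, 17.59 and 18.06 in GFP+ cells, against 17.92, 17.57, 17.53 and 17.70 in GFP- cells. GFP+ was the higher fraction in all 8 pools, by 0.32 ± 0.24 in odor (1.25-fold) and by 0.23 ± 0.12 in vehicle (1.17-fold). The groups did not overlap in odor and overlapped in vehicle. Without both replicate 1 pools the mean differences were 0.27 in odor and 0.22 in vehicle. All neighbours in the order of the 4 means overlapped, and these signals lie close to the highest of each array, 19.51 to 19.81.

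Atp1b3 encodes a beta subunit with broad expression. Its signal in odor pools 1 to 4 was 9.91, 10.15, 9.96 and 10.11 in GFP+ cells, against 10.50, 10.49, 11.00 and 10.17 in GFP- cells. In vehicle pools 1 to 4 it was 9.82, 9.76, 9.69 and 9.51 in GFP+ cells, against 10.11, 10.38, 10.70 and 10.99 in GFP- cells. GFP+ was the lower fraction in all 8 pools. The mean difference was -0.51 ± 0.41 in odor (1.42-fold lower) and -0.85 ± 0.51 in vehicle (1.80-fold lower). The part of other cell types in the Atp1b3 difference was not tested. The order of the means was vehicle GFP- (10.54), odor GFP- (10.54), odor GFP+ (10.03) and vehicle GFP+ (9.70), and only the GFP- groups overlapped with each other among these neighbours. The mean differences were -0.48 in odor and -1.03 in vehicle without both replicate 1 pools.

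Atp1b2 encodes the beta subunit that was first described as an adhesion molecule on glia. It was under background on all 16 arrays. Its signals were 4.60, 4.73, 4.46 and 4.997 in odor GFP+ and 4.75, 4.14, 4.30 and 4.90 in odor GFP- pools 1 to 4, and the groups overlapped. They were 3.35, 4.04, 3.499 and 3.81 in vehicle GFP+ and 4.22, 5.27, 5.03 and 5.48 in vehicle GFP- pools 1 to 4, with no overlap. The mean difference was 0.17 ± 0.30 in odor and -1.32 ± 0.36 in vehicle, and no fold is given for a probe set under background in both groups.

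In all, 4 of the 6 genes did not overlap between the fractions in odor (Fxyd2 and Atp1b1 above, Fxyd6 and Atp1b3 below in the GFP+ fraction), where 20% of all 22206 probe sets did not, 9.4% higher and 10.6% lower. In vehicle 4 did not overlap either (Fxyd2 higher, Fxyd6, Atp1b2 and Atp1b3 lower), where 19% of all probe sets did not, 9.01% higher and 10% lower. The genes were chosen with these differences in view, so nothing is read from the counts. The small differences moved with the scaling. After arrays were centred on their medians, the median of all probe sets moved from 0.14 to 0.49 in odor and from 0.14 to 0.50 in vehicle. The Atp1b3 difference was then -0.16 in odor and -0.48 in vehicle and its groups overlapped, and Atp1b2 overlapped in vehicle as well. Fxyd7 (0.84 in odor and 0.78 in vehicle) and Atp1b1 (0.67 and 0.59) then did not overlap in either treatment, and Fxyd2 and Fxyd6 kept their direction with no overlap.

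Promoters are shown for Fxyd6 and Atp1b3, the genes above background that lay lower in GFP+ cells in both treatments. RefSeq sequence of GRCm38.p6 was at hand for 3 of the 6 genes, Fxyd6, Atp1b1 and Atp1b3. The 250 bases before the annotated start are given 5′ to 3′ on the gene's strand, at chr9:45369935-45370184 (plus strand) for Fxyd6 and at chr9:96364432-96364681 (minus strand) for the first of the 2 starts listed for Atp1b3. Capitals mark a CCAAT box (CCAAT or its reverse complement) in Fxyd6 and a partial CRE site (TGACG or its reverse complement) in Atp1b3.
Fxyd6 promoter: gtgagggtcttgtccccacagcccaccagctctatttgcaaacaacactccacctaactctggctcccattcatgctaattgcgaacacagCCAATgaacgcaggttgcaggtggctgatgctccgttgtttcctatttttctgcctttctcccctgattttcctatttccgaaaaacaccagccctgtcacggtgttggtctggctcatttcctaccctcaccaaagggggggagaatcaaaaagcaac
Atp1b3 promoter: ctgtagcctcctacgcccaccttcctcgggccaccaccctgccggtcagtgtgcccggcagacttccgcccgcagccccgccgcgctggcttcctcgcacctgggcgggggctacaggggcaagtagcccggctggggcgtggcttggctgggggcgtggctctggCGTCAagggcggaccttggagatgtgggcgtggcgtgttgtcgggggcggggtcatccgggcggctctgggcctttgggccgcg
The CCAAT box of Fxyd6 begins at position -159 and the partial CRE site of Atp1b3 at position -84 from the start, and 33.8% and 17.8% of 32851 promoter windows of this length hold those letters on either strand. The Fxyd6 window held no partial CRE site and the Atp1b3 window no CCAAT box. Neither window held the EBF site, TCCC and GGGA with any 2 bases between them (in 0.779% of windows), TAATTA (4.84%), the E-box CAGCTG (13.0%) or the TATA box TATAAA (12.4%). The Atp1b3 window is rich in G and C, at 73.6%, against 50.4% for Fxyd6 and a median of 52.4% over all windows. Of the windows not printed, that of the second Atp1b3 start held no partial CRE site. The Atp1b1 window held a CCAAT box at position -81.

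The next comparison asked whether 2-hexanone changed these transcripts within a sorted fraction. None of the 6 genes passed in GFP+ cells, in GFP- cells, or for the change of the GFP+ minus GFP- difference with odor (limma, adjusted over 22206 probe sets). Over all probe sets 0.00901% passed in GFP+ cells, 0% in GFP- cells and 0.00901% for the change of the difference. At an unadjusted p below 0.05 there was 1 of the 6 genes, Atp1b2, in GFP+ cells, 0 in GFP- cells and 1, again Atp1b2, for the change of the difference. The shares of all probe sets at that unadjusted threshold were 3.91%, 2.46% and 2.93%. None of the 6 genes passed under any of the 18 alternatives run (17 for Atp1b2).

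Fxyd2 had a mean of 9.74 ± 0.69 in odor GFP+ and 9.74 ± 1.15 in vehicle GFP+ cells (SD, n = 4). The log2 difference was 0.00 ± 0.51 SE with a 95% interval of -1.07 to 1.07, so a change of up to about that size either way could not be told from none. In GFP- cells, where it was under background in both treatments, the difference was 0.20 (interval -0.87 to 1.27). The change of its GFP+ minus GFP- difference with odor was -0.20 ± 0.72 SE (-1.71 to 1.32) in this fit, which does not pair the arrays of a pool. With the pool as a fixed block it was -0.20 ± 0.46 SE. Neither fit shows that the differences in odor (3.49) and vehicle (3.69) were alike.

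The intervals were narrower for Fxyd6 and Atp1b1. For Fxyd6 the odor minus vehicle difference was -0.16 in GFP+ cells (-0.56 to 0.25) and 0.05 in GFP- cells (-0.36 to 0.45). For Atp1b1 it was 0.12 in GFP+ cells (-0.25 to 0.50) and 0.03 in GFP- cells (-0.34 to 0.40). Fxyd7, under background, had -0.10 in GFP+ and -0.16 in GFP- cells. Without both replicate 1 pools the differences in GFP+ cells were 0.14 for Fxyd2, -0.12 for Fxyd6, 0.12 for Atp1b1 and 0.42 for Atp1b3, and those in GFP- cells were 0.23, 0.14, 0.075 and -0.14 in the same order of genes.

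Atp1b3 and Atp1b2 did not overlap between odor and vehicle in GFP+ cells, 2 of the 6 genes, where 2.01% of all probe sets did not, 1.01% higher and 1% lower. Among the GFP- arrays 0 of the 6 genes did not overlap, where 1.77% of all probe sets did not, 0.941% higher and 0.833% lower. Atp1b3 averaged 10.03 ± 0.11 in odor GFP+ and 9.70 ± 0.13 in vehicle GFP+ cells, a difference of 0.33 ± 0.21 SE (1.26-fold, limma adjusted p = 1.00; 0.343 to 1.00 under the alternatives). An exact two-sided permutation test gave p = 0.0286, the smallest that 4 against 4 arrays allow and unadjusted among 12 such tests. Atp1b2 averaged 4.70 ± 0.23 in odor GFP+ and 3.68 ± 0.31 in vehicle GFP+ cells, a difference of 1.02 ± 0.26 SE (adjusted p = 0.881), with the same exact permutation p. Its change of the GFP+ minus GFP- difference was 1.497 ± 0.37 SE (adjusted p = 1.00). All Atp1b2 signals were under background, and with arrays set to their floors the difference in GFP+ cells was 0.27, which is the shift of the floors themselves. In GFP- cells the differences were 0.00 ± 0.21 SE for Atp1b3 and -0.48 ± 0.26 SE for Atp1b2.

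**Figure D3:**
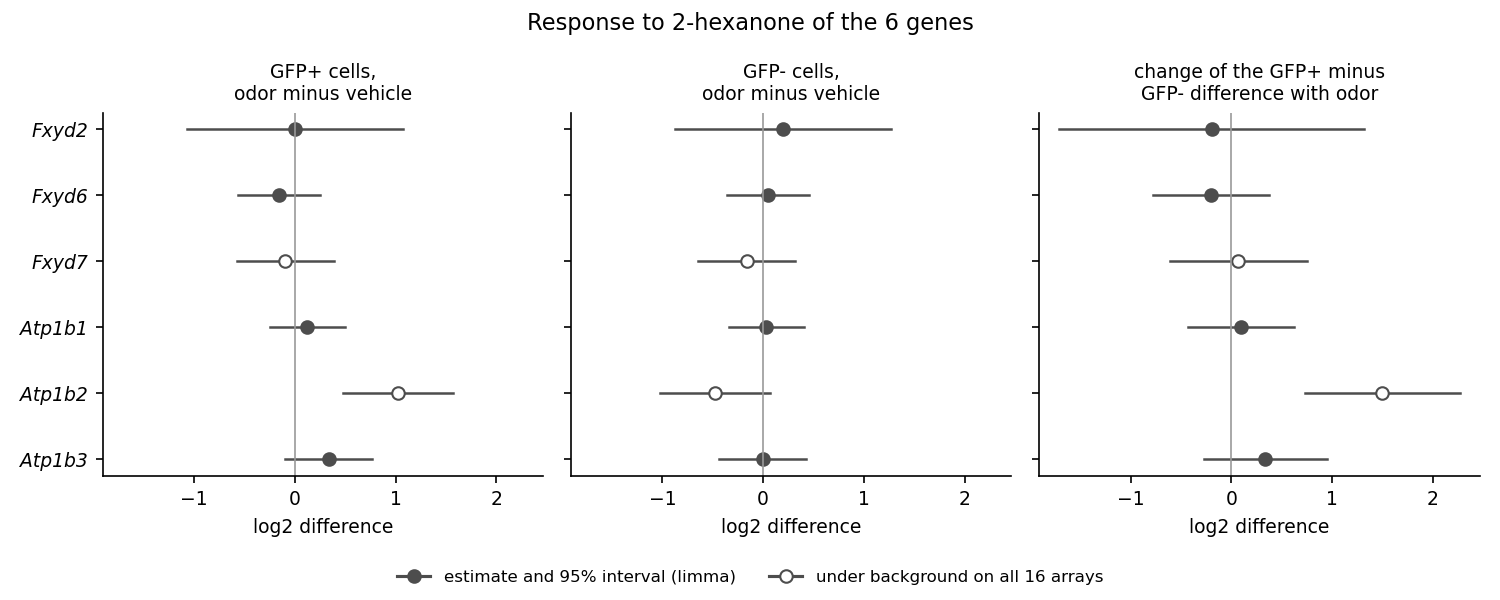
Log2 difference between odor and vehicle in GFP+ cells, in GFP- cells, and the change of the GFP+ minus GFP- difference with odor, with 95% intervals from limma (n = 4 pools per group), for the 6 genes. Open points mark genes under background on all 16 arrays. The Fxyd2 intervals are the widest in each panel, and only the Atp1b2 intervals in the first and last panels leave out 0 before adjustment.

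Other genes of the pump pathway were taken from a list of 26, of which 18 had a named probe set. The others are not analysed here. The list was drawn up with earlier results of these data known. Its counts and p-values between the fractions are therefore a description and no independent evidence. Between the fractions, 4 of the 18 passed with a higher GFP+ signal and 0 with a lower one in odor, where 5.29% of all probe sets were higher and 9.56% lower (limma, adjusted over all probe sets). In vehicle 4 were higher and 0 lower, where 5.83% of all probe sets were higher and 9.86% lower. The median difference of the 18 was 0.12 in odor and 0.36 in vehicle, against 0.14 and 0.14 over all probe sets. Only 4 of the 18 were above background on any array, so these medians rest mostly on signals under background. The genes that passed above background were users of the sodium gradient: 3 of 6 in each treatment, Slc8a1, Slc4a4 and Slc24a4.

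Slc8a1 encodes a sodium/calcium exchanger of the plasma membrane. It averaged 11.49 ± 0.53 in odor GFP+ and 10.01 ± 0.32 in odor GFP- cells, a difference of 1.48 ± 0.33 SE (2.80-fold, limma adjusted p = 0.00339). In vehicle it averaged 11.44 ± 0.52 in GFP+ and 9.98 ± 0.64 in GFP- cells (1.46 ± 0.33 SE, 2.75-fold, limma adjusted p = 0.00388). The lowest GFP+ array exceeded the highest GFP- array in each treatment. Without both replicate 1 pools the differences were 1.41 in odor and 1.46 in vehicle.

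Slc4a4, an electrogenic sodium bicarbonate cotransporter, was 2.23-fold higher in odor (1.15 ± 0.27 SE, limma adjusted p = 0.00599) and 2.13-fold higher in vehicle (1.09 ± 0.27 SE, limma adjusted p = 0.00891). Without both replicate 1 pools the differences were 1.22 in odor and 1.13 in vehicle. Its groups overlapped in vehicle, and the vehicle call was lost without vehicle replicate 4 (adjusted p = 0.0763). Slc24a4, the potassium-dependent exchanger that extrudes calcium from olfactory cilia, was 1.56-fold higher in odor (0.64 ± 0.18 SE, limma adjusted p = 0.019). That call was lost without odor replicate 3 or 4 (adjusted p = 0.0905 and 0.0907) and with only the odor arrays fitted (0.0603). In vehicle Slc24a4 was 1.45-fold higher and passed narrowly (0.53 ± 0.18 SE, limma adjusted p = 0.0494). The vehicle call was lost when any 1 pool but odor replicate 4 was omitted (adjusted p = 0.0516 to 0.211). Omitting both replicate 1 pools gave 0.73 in odor and 0.48 in vehicle, and the vehicle call was lost (adjusted p = 0.169). It was also lost with array weights (0.0629), with only the vehicle arrays fitted (0.0686) and with signals raised to the floor (0.0601).

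The cotransporter gene Slc12a2, which loads chloride into olfactory neurons, averaged 15.996 ± 0.14 in odor GFP+ and 16.07 ± 0.13 in odor GFP- cells, and 16.03 ± 0.12 in vehicle GFP+ and 15.97 ± 0.19 in vehicle GFP- cells, and did not pass. Of the 5 other pump and related ATPase subunits measured, 0 passed in odor (0 at an unadjusted p below 0.05) and 1 in vehicle, the testis catalytic subunit gene Atp1a4 (0.89 ± 0.27 SE, limma adjusted p = 0.0346). The Atp1a4 call was lost without odor replicate 2 or vehicle replicate 2, 3 or 4 (adjusted p = 0.0514 to 0.261). Of 3 other FXYD genes 1 passed in odor, Fxyd3 (0.95 ± 0.23 SE, limma adjusted p = 0.00785), and 0 in vehicle, with 0 of those 3 at an unadjusted p below 0.05. Both Atp1a4 and Fxyd3 were under background in all groups, as were all 4 measured pump partners of the Nkain family, none of which passed in either treatment (0 at an unadjusted p below 0.05). With 2-hexanone against vehicle, 0 of the 18 genes passed limma in either fraction, and 0 did so at an unadjusted p below 0.05. For the change of the fraction difference 0 passed, and 2 of the 18, Slc8a2 and Atp12a, were below 0.05 unadjusted, as were 2.93% of all probe sets. Both were under background on all 16 arrays.

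Over the 16 arrays, the genes most like Fxyd2 were odorant receptors. Likeness was the root mean square difference between log2 profiles after centring each gene on its own mean, over 19504 other genes. The nearest were Olfr1497 (0.457), Olfr550 (0.574), Olfr112 (0.575), Olfr211 (0.587) and Olfr222 (0.589), against a median of 1.90 over all genes. Of the 100 nearest genes 96 were odorant receptors, which are 5.54% of all named genes. The other 4 were Olfr911-ps1, Taar9, Taar4 and Ptprn, a gene of dense-core vesicles. Fxyd2 was chosen for the highest GFP+ difference among genes not counted as odorant receptors. Since the difference between the fractions sets most of this measure, the ranking is a description of that choice.

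**Figure D4:**
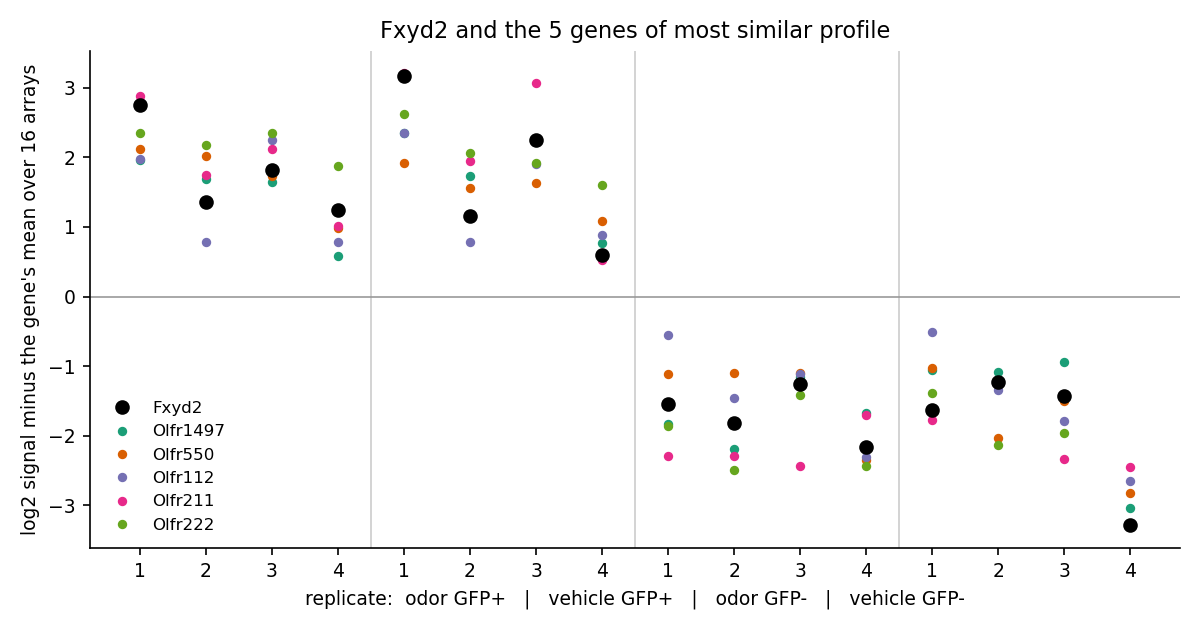
Log2 signal minus the gene's own mean over the 16 arrays, for Fxyd2 (large black points) and the 5 genes of most similar profile, all odorant receptors, array by array in 4 blocks (odor GFP+, vehicle GFP+, odor GFP- and vehicle GFP-, replicates 1 to 4 in each). All 6 genes lie above 0 on the 8 GFP+ arrays and below 0 on the 8 GFP- arrays, with root mean square differences from Fxyd2 of 0.457 to 0.589.

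The genes nearest to Fxyd6 were Mex3b, an RNA-binding protein gene (root mean square difference 0.258), Akr1b10 (0.306, under background on all arrays) and Sptlc2, a gene of sphingolipid synthesis (0.315), against a median of 0.873 over all genes. Sptlc2 averaged 9.39 in odor GFP+ and 10.99 in odor GFP- cells, and 9.13 in vehicle GFP+ and 10.69 in vehicle GFP- cells. For Atp1b2, under background itself, they were Smox (0.314), Cdc25b (0.336) and Dctd (0.338), against a median of 0.729. Cdc25b and Dctd were under background on all arrays as well.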

How the data were processed

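RNA of sorted cells, 50 to 100 ng per sample, was measured on 16 Clariom S mouse arrays. The authors deposited 1 log2 signal for each probe set and array. The submitters' processing notes name Affymetrix Expression Console, while version, summarisation and build were not given in the sources used here. Of 28846 rows, 6640 control rows were left out and 22206 probe sets were tested, 19572 of them with 1 symbol, 0 with several and 2634 without a name. Names and neighbouring genes came from the platform annotation and the RefSeq table of GRCm38.p6, in which all 19572 Entrez identifiers matched. Of several probe sets of a gene, that of highest mean was used.

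Sample titles gave the group and the replicate number. Differences were tested with limma 3.58.1 under R 4.3.3 (lmFit, then eBayes, on 4 group means over 16 arrays, no covariate, 12 residual degrees of freedom) with Benjamini-Hochberg adjustment over 22206 probe sets and a threshold of 0.05. The script was tested on simulated data. Exact permutation tests used scipy 1.17.1, and the plots were drawn with matplotlib 3.10.9 in Python 3.11.15. The number of arrays limits the precision. A fold against a group with all arrays under background is a lower bound, taken at those floors. The GFP+ and GFP- arrays of a pool come from the same mice, by the labels, so the pool pairs them. The correlation of these arrays' deviations from their group means was 0.0749 to 0.425 in odor and 0.0136 to 0.352 in vehicle pools (consensus 0.171). Alternatives covered the fit (array weights, a robust prior with a trend, the 2 compared groups alone), the scaling (quantiles, median centring, signals raised to the floor), a filter that drops the dimmest 40% of probe sets, blocks (pool as random or fixed, replicate number), and the omission of each pool in turn. Leaving out both replicate 1 pools was added after the data were seen.

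The 6 genes, the pathway list and the marker lists were chosen with earlier results of these data known. The named genes are the 6, S100a5 and Omp, pathway genes that passed with up to 4 that did not, the 5 genes of profile most like Fxyd2 and 3 for each other of the 6 whose group means span more than 1 log2 unit, and the 3 annotated genes on either side of Fxyd2. Slc8a2 and Atp12a, the 4 genes not counted as odorant receptors among the 100 nearest, and the gene next to Fxyd2 in size were named after their values were seen. Omp averaged 19.45 ± 0.04 in odor GFP+ and 19.36 ± 0.11 in odor GFP- cells, and 19.38 ± 0.12 in vehicle GFP+ and 19.37 ± 0.09 in vehicle GFP- cells. The basal, erythroid, ensheathing glia, endothelial and stromal, and Bowman gland and respiratory markers had 3 of 6, 2 of 2, 0 of 3, 2 of 5 and 2 of 5 measured members lower in GFP+ cells, in odor and in vehicle, and 1 glia marker was higher in odor. Over all probe sets 9.56% were lower in odor and 9.86% in vehicle, and 5.29% were higher in odor. The 3 measured glia markers were under background on all odor arrays. Pecam1, Cdh5, Col1a1 and Col1a2, and the basal markers Krt5, Krt14, Trp63 and Neurog1, were under background on all 16 arrays.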

Additional observations from a re-analysis of the deposited data

Results flagged for a closer look

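Fxyd3 had 1 array far from the others of its group: the vehicle GFP- replicate 2 array, at 3.67, lay apart from the other 3, at 4.39 to 4.51, by 0.864 of the group's range. It was 1 of 44 groups of 4 arrays examined for a gap above Dixon's critical value, and chance flags about 1 in 20. All its arrays were under background.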

How the results depend on the processing

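With odor against vehicle, 0 of the 6 genes passed limma under any of the 18 alternatives in GFP+ cells, in GFP- cells or for the change of the fraction difference. Equal replicate numbers across treatments did not all correlate above 0.1, and with the replicate number as a block the 6 genes had 0 calls and all probe sets 5 in GFP+ and 1 in GFP- cells, against 2 and 0 without it. Directions of small differences changed. For genes under background on all arrays, a difference at the floor is the shift of the floors themselves. The cause of the other changes was not tested. In GFP+ cells Fxyd2 was 0.084 with array weights and 0.14 without both replicate 1 pools (-0.40 to 0.46 without 1 pool), and Fxyd7 was 0.27 at the floor (-0.20 to 0.089). In GFP- cells Fxyd2 was -0.015 with array weights (-0.27 to 0.42), Fxyd7 and Atp1b2 were 0.16 at the floor, and Atp1b3 was 0.0092 after quantile normalization and 0.027 with array weights (-0.16 to 0.14). Without 1 pool Fxyd6 ranged from -0.087 to 0.14 and Atp1b1 from -0.017 to 0.11. For the change of the fraction difference Fxyd2 was 0.10 with array weights (-0.63 to 0.17), and Fxyd7 was -0.19 without both replicate 1 pools (-0.093 to 0.29). In vehicle 11 pathway genes passed with centred arrays, 2 with only the arrays compared, 2 at the floor and 1 to 4 without 1 pool (1 without vehicle replicate 4). In odor 2 to 4 passed without 1 pool (2 without odor replicate 4). Slc8a1 passed under all 19 alternatives in both treatments. The Atp1a4 call was also lost after quantile normalization (adjusted p = 0.0515) and with only the arrays compared (0.0624), its difference was -0.10 at the floor, and the Fxyd3 call in odor was lost at the floor (adjusted p = 0.961) and without odor replicate 2 or 4 (0.0973 and 0.0752). Over all probe sets, GFP+ against GFP- gave 3299 calls in odor and 3484 in vehicle, against 10258 and 10736 with centred arrays and 1915 and 2190 at the floor. Odor against vehicle gave 1 call in GFP+ cells with only the arrays compared and 7 at the floor, and 0 or 1 in GFP- cells. The change of the fraction difference had 2 calls, 0 with the pool as a fixed block, 0 or 1 without 1 pool and 0 without both replicate 1 pools. The pool as a fixed block gives no odor difference within a fraction, and the filter dropped Atp1b2. Signal under background limits Fxyd7 and Atp1b2.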
